A study of Homo sapiens with 4 samples.

Results

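The structured noncoding RNAs RMRP, RPPH1, RN7SL1, RN7SL2, RN7SL3, RN7SK and TERC were followed in a PRMT5 RNA immunoprecipitation sequencing (RIP-seq) experiment. Their peaks were those of the deposited list that overlapped 1 of the 7 genes on its own strand and were at most 1000 nt wide. This gave 9 of 18993 peaks, with at least 1 in every gene. RN7SL2 and RN7SL3 had 2 peaks each, and the other 5 genes had 1 each. The widest of them spanned 466 nt, and no wider peak and no peak on the opposite strand overlapped any of the genes, so neither limit removed a peak. The RNAs were chosen by their PRMT5 RIP and input levels in these same data, so these values are given as a description, with no test.

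The cells were Jurkat, a human leukemic T cell line. All 4 libraries came from cells treated with the mitogen PHA for 48 hours and irradiated with UV light, for which the labels and the study's methods give different wavelengths. Of these, 2 were PRMT5 RIP libraries, made from RNA recovered on a Flag antibody, and 2 were input libraries, which hold the RNA of the lysate before this recovery. The study's methods list both PRMT5 and Flag antibodies for RIP. They do not state whether the sequenced cells expressed a Flag-tagged PRMT5. No library from an immunoprecipitation without PRMT5, from unstimulated cells or from cells without UV light was analysed here.

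All of these RNAs act inside ribonucleoprotein particles and not as templates for protein. RMRP is the RNA of RNase MRP, which cuts precursor ribosomal RNA, and RPPH1 is the RNA of RNase P, which trims the 5′ ends of precursor tRNAs, and both enzymes share most of their proteins. RN7SL1, RN7SL2 and RN7SL3 are copies of 7SL, the scaffold of the signal recognition particle that brings ribosomes making secreted and membrane proteins to the endoplasmic reticulum. RN7SK encodes 7SK, which holds the elongation kinase P-TEFb inactive, and TERC is the template RNA of telomerase. RNA polymerase III makes all of them except TERC, which RNA polymerase II makes. PRMT5 is an arginine methyltransferase that works with WDR77 and is known for methylating the Sm proteins of spliceosomal particles.

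The peak list holds 1 value per peak for PRMT5 RIP and 1 for input, in RPM, which are reads scaled to the size of the library. How the authors combined the 2 libraries of each kind is not stated, so no spread between replicates, test or interval can be given for any of them, and the depth of each library is unknown. The log2 RPM ratio is the log2 of PRMT5 RIP over input, with 0.01 RPM added to each. Over all peaks its median was 1.10 and the central 90% ran from 0.06 to 2.60. Over the 12827 peaks of at most 1000 nt the median was 1.16. The RPM values of all peaks summed to 755969 in PRMT5 RIP and 489424 in input, so a ratio of 1 in RPM lies below what most peaks showed. All 10 T cell markers looked up had a peak, while 1 of 7 markers of other cells had one, namely CD79A, with at most 36.6 RPM in PRMT5 RIP against 21.9 RPM in input. The values come from bulk lysates, in which fewer cells with an RNA and less RNA per cell cannot be told apart.

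RMRP and RPPH1 gave the highest peaks of the list in PRMT5 RIP, and they stood on opposite sides of input. The RMRP peak lay on the minus strand of chromosome 9 from 35657754 to 35658017 (GRCh38). It covered nt 3 to 266 of the 270 nt of the RNA, so nearly the whole transcript was read as 1 peak. PRMT5 RIP gave 37999 RPM and input gave 7524 RPM, which made RMRP 5.05-fold higher in PRMT5 RIP, a log2 RPM ratio of 2.34. It ranked number 1 of all peaks in PRMT5 RIP and number 8 in input, and 91.95% of all peaks had a lower ratio.

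The RPPH1 peak lay on the minus strand of chromosome 14 from 20343073 to 20343422. It covered nt 1 to 339 of the 341 nt of the RNA and ran 11 nt past its 5′ end. PRMT5 RIP gave 29831 RPM and input gave 39699 RPM, a log2 RPM ratio of -0.41. RPPH1 was thus the highest peak of the list in input, the second highest in PRMT5 RIP, and 1.33-fold lower in PRMT5 RIP than in input. A lower ratio was seen in 0.400% of all peaks. The ratios of RMRP and RPPH1 differed by 2.75 on the log2 scale, or 6.72-fold. In input RPPH1 had 5.28 times the RPM of RMRP, whereas in PRMT5 RIP RMRP had 1.27 times that of RPPH1. Per nt of peak, RMRP had 144 RPM in PRMT5 RIP against 28.5 RPM in input, and RPPH1 had 85.2 RPM and 113 RPM, so the order of both RNAs turned around on this scale too. The list names a second gene identifier at the RPPH1 peak, and reads of an overlapping transcript cannot be told apart from those of RPPH1 there.

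**Figure D1:**
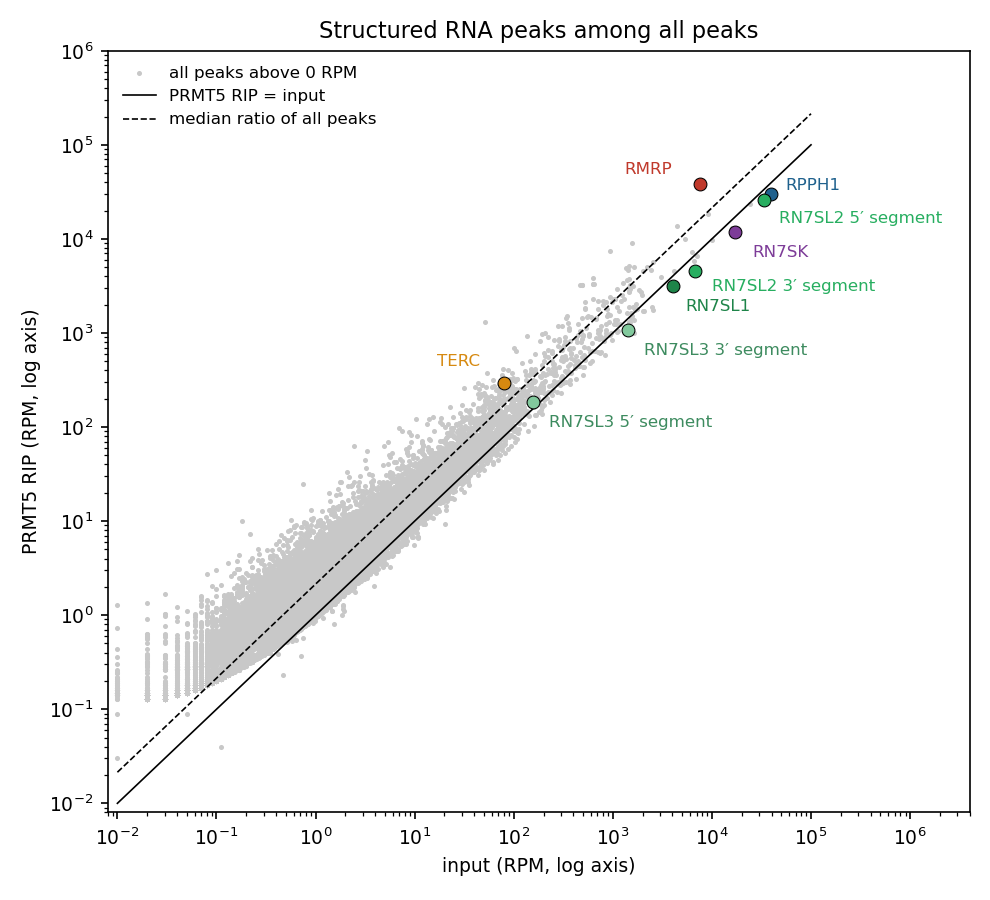
Each grey point is 1 peak of the list above 0 RPM, with its input RPM on the horizontal axis and its PRMT5 RIP RPM on the vertical axis, both on log scales, and the coloured points are the 9 peaks in the structured RNAs. RMRP and TERC lie above the dashed line of the median ratio of all peaks (1.10 on the log2 scale), RN7SL3 5′ lies between the lines, and the other 6 lie below the solid line of equal RPM.

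TERC was the other RNA above the median of the list. Its peak lay on the minus strand of chromosome 3 from 169764595 to 169765060, spanned all 451 nt of the RNA and ran 15 nt past the 3′ end. PRMT5 RIP gave 295 RPM and input gave 79.0 RPM, so TERC was 3.73-fold higher in PRMT5 RIP, a log2 RPM ratio of 1.90 that lay above 82.35% of all peaks. Its level was far lower than that of RMRP: per nt of peak it had 0.633 RPM in PRMT5 RIP against 0.170 RPM in input, the lowest of the 9 peaks in both. RMRP and TERC differed by 0.44 in log2 RPM ratio, a 1.35-fold difference with no replicate error to set it against. RMRP and TERC were 2 of the 9 peaks with at least 2 times the input RPM in PRMT5 RIP, a ratio that 56.6% of all peaks and 59.7% of those of at most 1000 nt reached. Both also had at least 3 times, as did 29.7% of all peaks and 33.6% of those of at most 1000 nt, and RMRP alone had at least 5 times, as did 10.4% and 12.8%. A second gene identifier is listed at the TERC peak too, with the same limit as for RPPH1.

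The signal recognition particle RNA was split over its gene copies, and 4 of its 5 peaks lay below input in RPM. For these 4, between 0.137% and 0.569% of all peaks had a lower ratio. RN7SL1 had a single peak of 25 nt, on the plus strand of chromosome 14 from 49586580 to 49586604, which are nt 1 to 25 of its 299 nt. PRMT5 RIP gave 3148 RPM there and input 4022 RPM, a log2 RPM ratio of -0.35. RN7SL2 had a 5′ segment, on the minus strand from 49862729 to 49862853, that covered nt 1 to 121 of the RNA, with 25757 RPM in PRMT5 RIP against 33912 RPM in input. This was the highest peak of the 7SL copies and the highest of all 9 peaks per nt, with 206 RPM in PRMT5 RIP against 271 RPM in input. Its 3′ segment, from 49862529 to 49862603, covered nt 247 to 299 and ran 22 nt past the 3′ end, with 4603 RPM in PRMT5 RIP against 6793 RPM in input. The log2 RPM ratios of these segments were -0.40 at the 5′ end and -0.56 at the 3′ end, a difference of 0.16. Both segments of RN7SL2 are listed with a second gene identifier, so reads of an overlapping transcript cannot be told apart from those of RN7SL2.

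RN7SL3 had its peaks at the same ends of the RNA, but with the opposite balance between them. Its 5′ segment, on the minus strand from 49853866 to 49853914, covered nt 1 to 49, with 186 RPM in PRMT5 RIP against 155 RPM in input. Its 3′ segment, from 49853616 to 49853665, covered nt 250 to 299, with 1076 RPM in PRMT5 RIP against 1407 RPM in input. Per nt the 5′ segment of RN7SL2 had 3.36 times the level of its 3′ segment in PRMT5 RIP and 2.99 times in input, while in RN7SL3 the 3′ segment had 5.67 times the level of the 5′ segment in PRMT5 RIP and 8.90 times in input. The log2 RPM ratio of the RN7SL3 3′ segment was -0.39, close to the values of RN7SL1 and of the RN7SL2 5′ segment.

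The 5′ segment of RN7SL3 was the only 7SL peak with more RPM in PRMT5 RIP than in input, with a log2 RPM ratio of 0.27, but its sign depends on the scaling, since it was -0.36 as a share of the RPM sum and -0.83 after subtraction of the list median. Within both copies the 5′ segment had the higher ratio of PRMT5 RIP over input, by 1.12-fold in RN7SL2 and 1.57-fold in RN7SL3. Between the segments of RN7SL2 lay 125 nt, and between those of RN7SL3 200 nt, that no listed peak covered. Of all peaks in the list, 53.0% had a width that was a multiple of 25 nt. Whether the peak edges and these gaps follow such a step was not tested. The copies share nearly all of their sequence, so their reads cannot be assigned with certainty, and how reads that match several copies were counted is not stated. The RPM summed over the 5 peaks, which depends less on how reads were split among these 3 copies, was 34770 in PRMT5 RIP and 46289 in input, a ratio of 0.751.

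**Figure D2:**
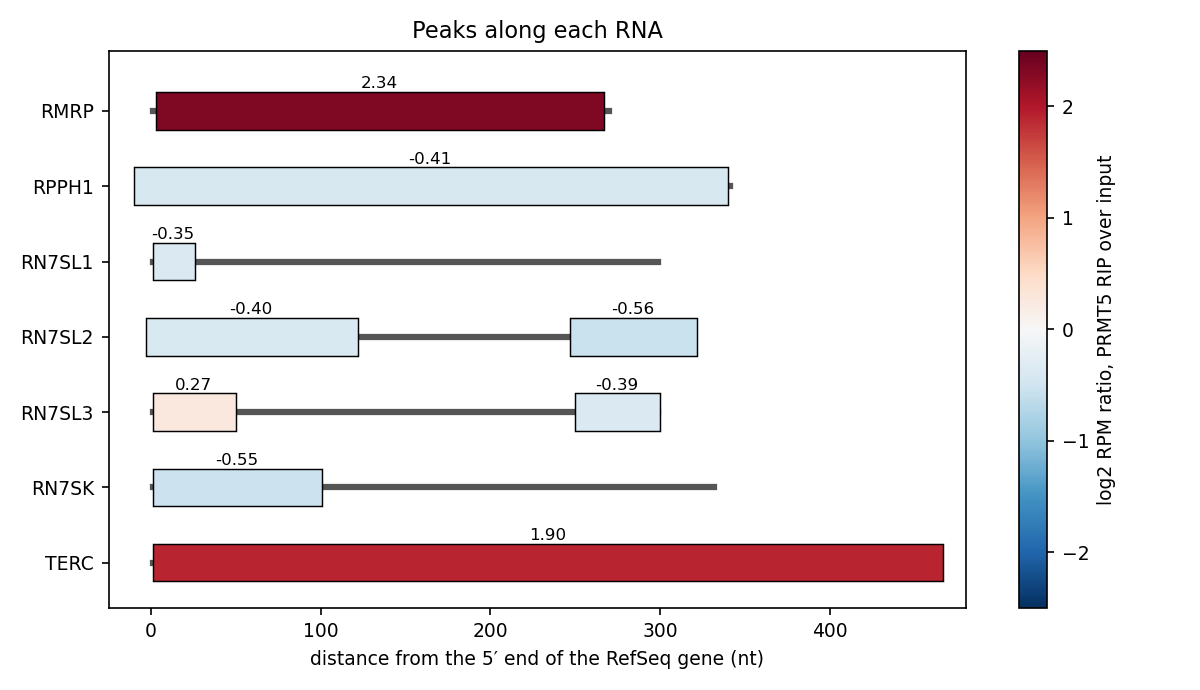
Grey lines show each RNA from its RefSeq 5′ end, in nt, and boxes show its peaks, coloured and labelled by the log2 RPM ratio of PRMT5 RIP over input. RMRP, RPPH1 and TERC are covered almost end to end, RN7SK and RN7SL1 only at the 5′ end, and RN7SL2 and RN7SL3 at both ends, and the positive value of RN7SL3 5′ turns negative under both other scalings.

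RN7SK, the RNA that restrains P-TEFb, had the lowest ratio among the main peaks of the 7 RNAs. Its peak, on the plus strand of chromosome 6 from 52995620 to 52995719, covered nt 1 to 100 of the 332 nt. PRMT5 RIP gave 11773 RPM and input 17187 RPM, so RN7SK was 1.46-fold lower in PRMT5 RIP, a log2 RPM ratio of -0.55. Only 0.190% of all peaks had a lower ratio, the RN7SL2 3′ segment among them. Per nt of peak, RN7SK had 118 RPM in PRMT5 RIP against 172 RPM in input, close to RN7SL1, with 126 RPM and 161 RPM. A second gene identifier is listed at this peak as well, with the same limit. The peak covered 30.1% of the RNA, and no value can be given for the rest, which was in no listed peak.

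Set side by side, the 9 peaks held 15.2% of the RPM sum of the list in PRMT5 RIP and 22.6% in input. Without RMRP these shares were 10.1% and 21.1%. RMRP went from 1.54% of the input sum to 5.03% of the PRMT5 RIP sum, while RPPH1 went down from 8.11% to 3.95%, the RN7SL2 5′ segment from 6.93% to 3.41% and RN7SK from 3.51% to 1.56%. In all, 6 of the 9 peaks lay below input in RPM, 4 of them in the 3 copies of 7SL, whose reads cannot be assigned with certainty. The share below input was 3.84% of all peaks, 3.83% of those of at most 1000 nt and 36.6% of the 41 peaks of that width with an input RPM of at least 1000. Of these 41 peaks, 36.6% had at least 2 times the input RPM in PRMT5 RIP, 14.6% at least 3 times and 4.88% at least 5 times. These 41 include 7 of the peaks described here, and of the other 34, 26.5% lay below input, 41.2% had at least 2 times the input RPM, 14.7% at least 3 times and 2.94% at least 5 times. Among the 41, RMRP had the second highest ratio after a peak in the linker histone gene H1-2, with 9052 RPM in PRMT5 RIP against 1548 RPM in input. Following in order were H1-3 at 3.61-fold, H2AC18 at 3.27-fold, H1-5 at 3.10-fold and H2AC19 at 3.08-fold. The 5 peaks nearest to RMRP in log2 RPM ratio were thus all in histone genes, whose mRNAs lack poly(A) tails. Near-identical copies among them, such as H2AC18 and H2AC19, can share reads. The other 6 structured RNA peaks of these 41, again with 4 in the 7SL copies, were among the 8 with the lowest ratios. The peaks below input were in the list of the authors' peak caller all the same, and the scaling behind its own fold change is not stated.

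By the ratio of the main peak, which is the peak with the most input RPM of each RNA, the order from high to low was RMRP, TERC, RN7SL1, RN7SL3, RN7SL2, RPPH1 and RN7SK. RN7SL1, RN7SL3, RN7SL2 and RPPH1 lay between -0.35 and -0.41, and with no replicate error none of these neighbours can be said to differ. TERC lay above all of these, and its difference from RPPH1, with the lowest value among them, was 2.31 on the log2 scale.

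**Figure D3:**
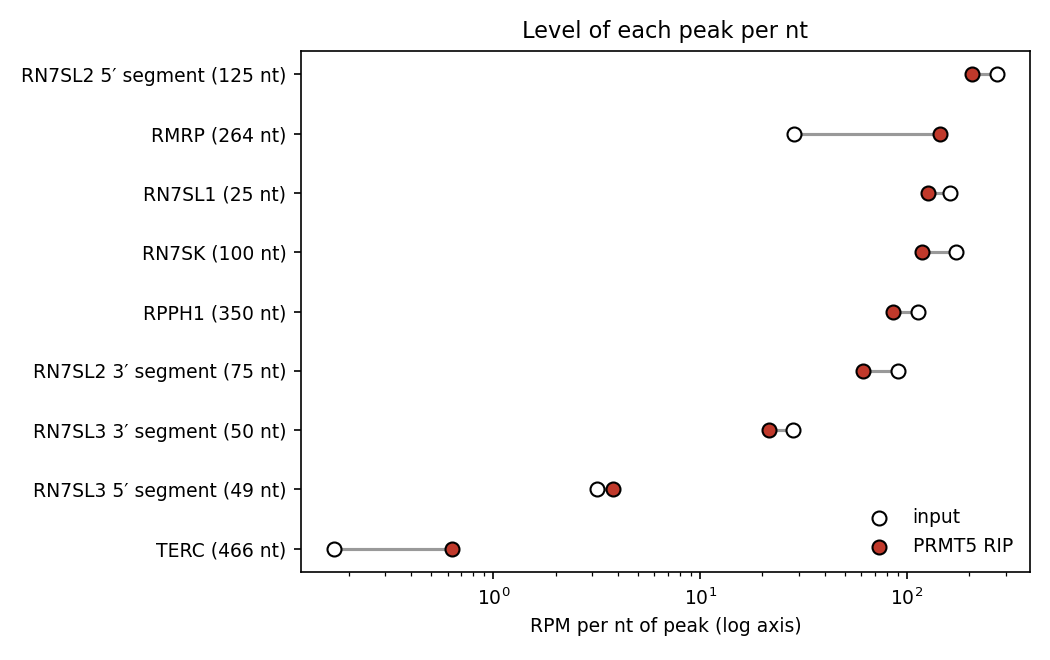
For each of the 9 peaks the open point gives input and the red point PRMT5 RIP, in RPM per nt of peak on a log axis, with the peak width in parentheses. RMRP moves from 28.5 in input to 144 in PRMT5 RIP and TERC from 0.170 to 0.633, while RPPH1, RN7SK, RN7SL1 and 3 of the 4 segments of RN7SL2 and RN7SL3 have the lower level in PRMT5 RIP. Reads that reach past a narrow peak make its level per nt too high.

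The mRNAs of proteins in or working with these particles were also in the list, with median ratios per particle that ran from below to slightly above that of all mRNAs. Of 15843 protein-coding genes with a known strand, 5954 had a peak on that strand. Across these 5954 genes, the median log2 RPM ratio of the peak with the most input RPM was 1.14. At least 2 times the input RPM in PRMT5 RIP was seen in 58.7%, and 2.67% were below input. Of 32 partner genes that could be looked up, 25 had a peak, and these genes were not matched to the others by RNA level. None of these 25 was below input, and 12 had at least 2 times the input RPM in PRMT5 RIP. For all protein-coding genes, peaks of any width were taken, up to 23202 nt for the partner gene RUVBL1. The structured RNA peaks were at most 1000 nt wide.

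For RNase MRP and RNase P, 7 of 10 proteins had a peak, with a median log2 RPM ratio of 1.21. The highest was RPP25L, a paralog of the subunit RPP25, with 56.5 RPM in PRMT5 RIP against 14.5 RPM in input, and the lowest was RPP21, with 48.5 RPM and 28.3 RPM, in a peak that also touched a readthrough gene. The RPP21 value can therefore hold reads of that gene. RPP14, RPP25 and RPP30 had no peak.

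For the signal recognition particle and its receptor, 7 of 7 proteins had a peak, with a median of 0.50, the receptor subunit SRPRB among them with 4.86 RPM in PRMT5 RIP against 2.90 RPM in input. The lowest was SRP14, which binds the Alu domain of 7SL together with SRP9, with 180 RPM in PRMT5 RIP against 179 RPM in input. The highest was SRP54, the subunit that binds signal peptides, but with only 0.32 RPM and 0.08 RPM. For the 7SK particle, 4 of 7 proteins had a peak, with a median of 1.13. MEPCE, which caps 7SK, was the lowest with 2.35 RPM in PRMT5 RIP against 1.48 RPM in input, and HEXIM2, an inhibitor of P-TEFb, the highest with 5.10 RPM and 1.60 RPM. For telomerase, 7 of 8 proteins had a peak, with a median of 1.11, and TERT, the reverse transcriptase, had none. Among them NOP10 was the lowest, with 57.1 RPM in PRMT5 RIP against 45.7 RPM in input, and GAR1 the highest, with 0.99 RPM and 0.34 RPM. Both belong to the H/ACA proteins that also bind TERC.

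The structured RNAs were then set beside the small RNAs most like them. The 15 peaks on spliceosomal snRNA genes had a median log2 RPM ratio of 0.43, from 0.03 to 1.30, and none was below input. The 36 snoRNA peaks had a median of 0.75, from -0.31 to 3.81, with 4 below input. TERC carries an H/ACA domain, and the 19 peaks on H/ACA snoRNA genes had a median of 0.78 and a highest value of 1.82, against 1.90 for TERC. That highest value came from SNORA47, with only 1.3 RPM in PRMT5 RIP against 0.36 RPM in input. SNORA4 entered both snoRNA counts with nested peaks of the same values. The 9 peaks on scaRNA genes, small RNAs of Cajal bodies where TERC also resides, ran from -0.14 to 1.35. Among small RNA peaks with at least the input RPM of TERC, the highest ratio was 1.496 over 6 snRNA peaks and 1.89 over 6 snoRNA peaks. Both lay below TERC with 3.73 and RMRP with 5.05. Most of these snRNA peaks lay on U1 copies or variants, such as RNU1-1, RNU1-2 and RNU1-3, which can share reads. None of the 19 H/ACA snoRNA peaks and none of the 9 scaRNA peaks reached the input of TERC. The 6 snoRNA peaks that did were all on C/D snoRNA genes, the other snoRNA class counted. The H/ACA peak with the most input, SNORA21, had 98.8 RPM in PRMT5 RIP against 34.7 RPM in input, a ratio of 2.848. That cutoff also leaves out other snoRNA peaks of lower input with higher ratios. SNORD55 had 14.02 and SNORD23 6.963, both above RMRP, and SNORD86 had 4.102, above TERC. Their input was 3.16, 2.99 and 7.97 RPM, against 79.0 RPM for TERC. Whether other transcripts overlap these small RNA genes was not looked up, and reads of such transcripts could not be told apart. No test of these differences was possible without values per library.

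**Figure D4:**
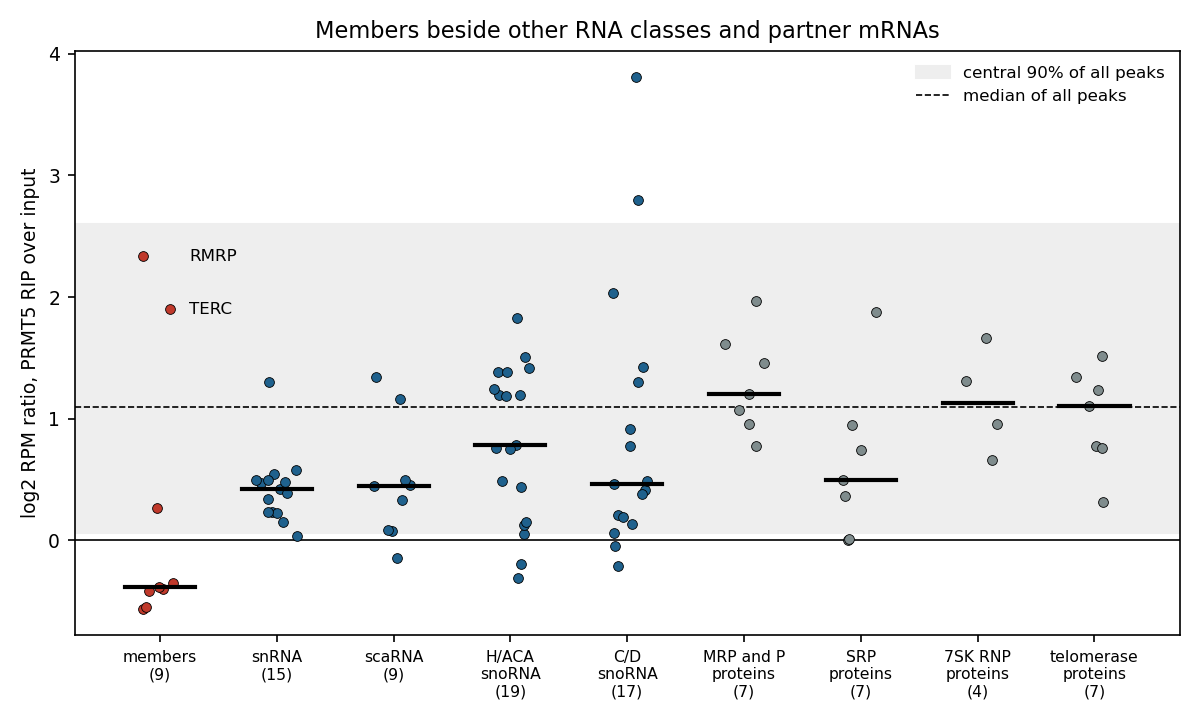
The log2 RPM ratio of PRMT5 RIP over input is shown for the 9 structured RNA peaks (red), for peaks of other small RNA classes (blue) and for the partner protein genes by their main peak of any width (grey), with the number of points in parentheses. Thick bars are medians, the shaded band is the central 90% of all peaks (0.06 to 2.60), and RMRP and TERC lie apart from the other 7 red points.

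Other products of RNA polymerase III were looked up only among peaks of at most 1000 nt with at least 50% of their length in the gene. No such peak lay on any of the 443 nuclear tRNA genes, the 4 Y RNA genes, the 4 vault RNA genes, the 5 U6 snRNA genes or the gene of BC200. Wider or partly overlapping peaks over these genes were not looked for, and the ratio of a gene without a peak is unknown.

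By the same rule, further copies of 7SL and 7SK elsewhere in the genome carried 4 peaks. RN7SL4P, on chromosome 3, had a peak over nt 1 to 25, counted on the strand of the peak, as RN7SL1 did, with 314 RPM in PRMT5 RIP against 369 RPM in input, with the log2 RPM ratio at -0.23. RN7SL5P, on chromosome 9, had 17.1 RPM and 24.98 RPM, a log2 RPM ratio of -0.55. Of the 7SK pseudogenes, RN7SKP203 on chromosome 2 had 506 RPM in PRMT5 RIP against 623 RPM in input, and RN7SKP255 on chromosome 14 had 38.6 RPM and 37.0 RPM. The values of these copies can hold reads of 7SL and 7SK themselves.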

How the data were processed

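The authors deposited 1 peak list made from 2 PRMT5 RIP and 2 input libraries. The submitters' processing notes name fastp, HISAT2 and the build hg38, and the peak caller, the annotation version and the pooling of replicates are not given in the sources used here. The deposited RPM values are rounded to 0.01, and below 1 RPM they took 90 different steps in PRMT5 RIP, so whole reads were not recovered. The deposited fold change, p-value, FDR and score columns hold the authors' own comparison and were not used.

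Gene positions came from RefSeq (GRCh38.p14), which was matched by symbol for 7 of 7 genes. That table gives no strand, so the strands of the 7 RNAs were set from general knowledge, and those of protein-coding genes came from its promoter table. Peak starts were raised by 1. Peaks of other small RNA classes were at most 1000 nt wide with at least 50% of their length in the gene, on either strand. Of each list of partner proteins, the genes with the highest and lowest ratio are named, and of the peaks with an input RPM of at least 1000, the 5 nearest to RMRP in ratio. Members and lists were chosen with earlier results of these data known. Peak matching and ratios were tested on simulated data. Python 3.11.15, pandas 2.3.3 and numpy 2.4.6 were used.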

Additional observations from a re-analysis of the deposited data

How the results depend on the processing

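No paired analysis was possible because the list holds 1 pooled value per peak for PRMT5 RIP and 1 for input and leaving out a replicate could not be done either. No value changed sign among the main peaks of the 7 RNAs. As a share of the RPM sum, their log2 RPM ratios were 1.71 for RMRP, 1.27 for TERC, -0.98 for RN7SL1, -1.01 for RN7SL3, -1.02 for RN7SL2, -1.04 for RPPH1 and -1.17 for RN7SK. After subtraction of the list median they were 1.24, 0.80, -1.45, -1.48, -1.50, -1.51 and -1.64 in the same order. These scalings move every peak by the same amount, so differences between RNAs keep their size. Summed over segments, RN7SL2 gave -0.42 and RN7SL3 -0.31, and as the median of segments -0.48 and -0.0605, so the difference of -0.01 between them became -0.12 and -0.42. A pseudocount of 1 moved TERC to 1.89 and every other member by under 0.01, and the count of 9 peaks stayed under each alternative. The partner lists moved more. With a pseudocount of 1 their medians were 1.13 for RNase MRP and RNase P, 0.30 for the signal recognition particle, 0.61 for the 7SK particle and 0.75 for telomerase. With the median over the peaks of each gene they were 0.88, 0.95, 1.73 and 1.13. With an input RPM of at least 0.5 the last 3 were 0.43, 1.31 and 0.94. The median of all protein-coding genes was not recomputed under these settings, so these values cannot be set against its 1.14. The snRNA median was 0.37 and the snoRNA median 0.40 with a pseudocount of 1, and the snoRNA median was 0.48 at an input RPM of at least 1. Leaving out predicted genes named LOC, chosen after the data were seen, moved neither class by 0.01 or more. The depth per library is unknown, so the precision of the lowest values, such as those of SRP54 and GAR1, cannot be given.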

Other observations

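Of the 7 genes, RMRP, RPPH1 and RN7SL1 had other peaks within 2000 nt. On the strand opposite to RMRP, 295 nt from the gene, began a peak of 2163 nt that touched CCDC107 and ARHGEF39, with 24.7 RPM in PRMT5 RIP against 4.72 RPM in input. Its ratio of 5.22 lay beside that of RMRP, 5.05, while 10.4% of all peaks had a ratio of at least 5. On the strand opposite to RPPH1, 253 nt away, a peak in PARP2 had 4.15 RPM in PRMT5 RIP against 2.51 RPM in input, and on the strand of RPPH1 a peak of 38 nt, 236 nt upstream, had 0.36 RPM and 0.12 RPM.

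RPS29, a ribosomal protein gene on the strand opposite to RN7SL1, had a peak of 485 nt that ended 166 nt from it, with 257 RPM in PRMT5 RIP against 196 RPM in input. A further RPS29 peak of 1722 nt, 1276 nt from RN7SL1, had 1294 RPM in PRMT5 RIP against 51.7 RPM in input, a ratio of 25.01. Which RNA gives this signal was not tested. These neighbouring peaks were looked at after their values had been seen.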
